A study of Mus musculus with 2 samples.

Results

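The mitosis and spindle genes are 42 mouse genes whose products drive cells into mitosis, condense chromosomes, attach them to the spindle and divide the cell. They were taken by gene symbol: every probe set of the array whose platform symbol was one of the 42 was used, and the one of highest mean intensity stood for the gene. A probe set was found for 41 of the 42, with 95 probe sets in all, among 18193 named genes of the array. For Ccnb1, the cyclin B1 gene, no probe set carried the symbol in the probe table used here, and it was not analysed here.

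The RNA came from B cells of the inbred NOD strain, whose mice tend to develop autoimmune diabetes. The transgenic group carried human AIRE under an MHC class II promoter, which is active in antigen-presenting cells, and the other group was non-transgenic NOD. Cells lacking Thy1 and CD11c and bearing B220 were used in both groups, and each RNA was of 2 mice aged 8 weeks. Each group was 1 Affymetrix array, so no difference below has a replicate check, a test or an error, and precision is limited by how few arrays there are. Below, values with and without the transgene are those of the transgenic and the non-transgenic array. The promoter is not restricted to B cells, and the number of transgenic founder lines and the organ of origin are not stated in the labels.

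Cells enter mitosis when cyclins A and B bind the kinase Cdk1. Condensins then compact the chromosomes, kinetochores tie each chromosome to spindle microtubules, and a checkpoint holds back the anaphase promoting complex until all are attached. Most of these genes are switched on together late in the cell cycle by the Myb-MuvB complex and the transcription factor Foxm1, and are kept off in resting cells by the related DREAM complex. In a B cell population their transcripts are known to come mainly from dividing cells, such as germinal centre cells and early precursors, while most mature B cells rest. In RNA from a mixed population, fewer dividing cells and less RNA per dividing cell cannot be told apart.

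A shared feature of these genes lies in their promoters. The cell cycle genes homology region, or CHR, is a short element bound by MuvB complexes, and it often stands near a CCAAT box, the site of the factor NF-Y. Promoters of 300 bases, from 250 before to 50 after the start of transcription, were found for 34 of the 42 genes in RefSeq sequence of build GRCm38.p6. The CHR letters, which are TTTGAA and its common variant TTTAAA (the same on both strands), searched on either strand, stood in 29 of these 34 genes (85.3%), against 30.6% of all 27025 genes in the table and 22.1% of the 8791 that also lay above the intensity filter. TTTGAA alone was in 26 of 34 (76.5%), against 20.2% of all genes and 14.2% of those above the filter. CCAAT on either strand was in 25 of 34 (73.5%), against 41.1% of all genes and 42.8% of those above the filter. The E2F letters TTTCCCGC, TTTCGCGC, TTTGGCGC or TTTGCCGC, on either strand, were in 3 of 34 (8.82%), against 2.60% of all genes and 4.88% of those above the filter. A match of letters is a description and not a bound site.

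The promoters below are shown because they belong to the genes with a CHR match whose transgenic over non-transgenic ratio was lowest. Capitals mark the CHR, CCAAT and E2F letters on either strand, so that TTCAAA is a CHR match, ATTGG a match to the CCAAT box and GCGGGAAA an E2F match on the opposite strand, and positions count from 1 at the first base shown. In Ube2c a pair of CCAAT matches on opposite strands overlap, at positions 65 and 68.
Bub1b (chr2:118597961-118598260, plus strand), with CHR letters at 291: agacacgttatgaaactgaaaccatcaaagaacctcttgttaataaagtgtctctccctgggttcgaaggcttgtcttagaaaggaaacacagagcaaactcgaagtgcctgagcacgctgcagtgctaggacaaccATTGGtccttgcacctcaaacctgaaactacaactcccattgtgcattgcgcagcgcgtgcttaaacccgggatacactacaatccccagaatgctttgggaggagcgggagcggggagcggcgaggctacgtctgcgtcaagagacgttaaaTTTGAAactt
Cdk1 (chr10:69352863-69353162, minus strand), with CHR letters at 180 and 236: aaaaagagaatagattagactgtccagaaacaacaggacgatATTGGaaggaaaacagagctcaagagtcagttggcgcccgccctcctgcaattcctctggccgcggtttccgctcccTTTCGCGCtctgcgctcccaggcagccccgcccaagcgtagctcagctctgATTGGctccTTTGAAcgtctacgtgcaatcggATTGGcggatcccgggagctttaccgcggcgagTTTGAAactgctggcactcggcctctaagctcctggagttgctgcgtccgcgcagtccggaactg
Ncapg (chr5:45669675-45669974, plus strand), with CHR letters at 221: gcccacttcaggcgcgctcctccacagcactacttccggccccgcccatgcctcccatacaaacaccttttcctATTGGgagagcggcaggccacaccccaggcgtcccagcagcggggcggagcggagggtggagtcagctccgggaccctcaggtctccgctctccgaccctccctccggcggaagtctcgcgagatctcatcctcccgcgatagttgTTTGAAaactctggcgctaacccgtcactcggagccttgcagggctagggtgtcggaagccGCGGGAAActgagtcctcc
Ube2c (chr2:164769679-164769978, plus strand), with CHR letters at 222: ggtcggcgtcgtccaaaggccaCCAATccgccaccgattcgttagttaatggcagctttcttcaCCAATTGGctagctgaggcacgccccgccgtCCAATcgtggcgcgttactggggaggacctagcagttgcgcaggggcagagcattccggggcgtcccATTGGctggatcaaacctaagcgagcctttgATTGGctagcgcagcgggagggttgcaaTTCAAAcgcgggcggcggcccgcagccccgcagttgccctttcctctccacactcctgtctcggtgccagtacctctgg

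The comparison asked how transcripts of mitosis stood in B cells with the AIRE transgene. As a group they were slightly lower on the transgenic array, and the difference was uneven. The measured cyclin and entry kinase genes and the anaphase activators were lower, while checkpoint genes differed in direction. Several condensin, central spindle and scaffold genes were level or higher by the probe sets that stood for them. Of the 41 genes, 39 lay above the intensity filter of 98.8, which the higher of the 2 values had to reach. Among these 39, 25 were lower and 14 higher (64.1% lower, against 48.8% of all genes above the filter). Their median log2 ratio was -0.24, and that of all 10810 genes above the filter was 0.01. By size, 2 of the 39 (5.13%) were at least 2-fold lower, where 4.95% of all genes were, and none was at least 2-fold higher, where 2.74% of all genes were. The count past 2-fold was therefore near the background. At 1.5-fold, 10 of 39 (25.6%) were lower, against 13.4% of all genes, and 2 (5.13%) were higher, against 9.88%. The other 27 genes lay within 1.5-fold.

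**Figure D1:**
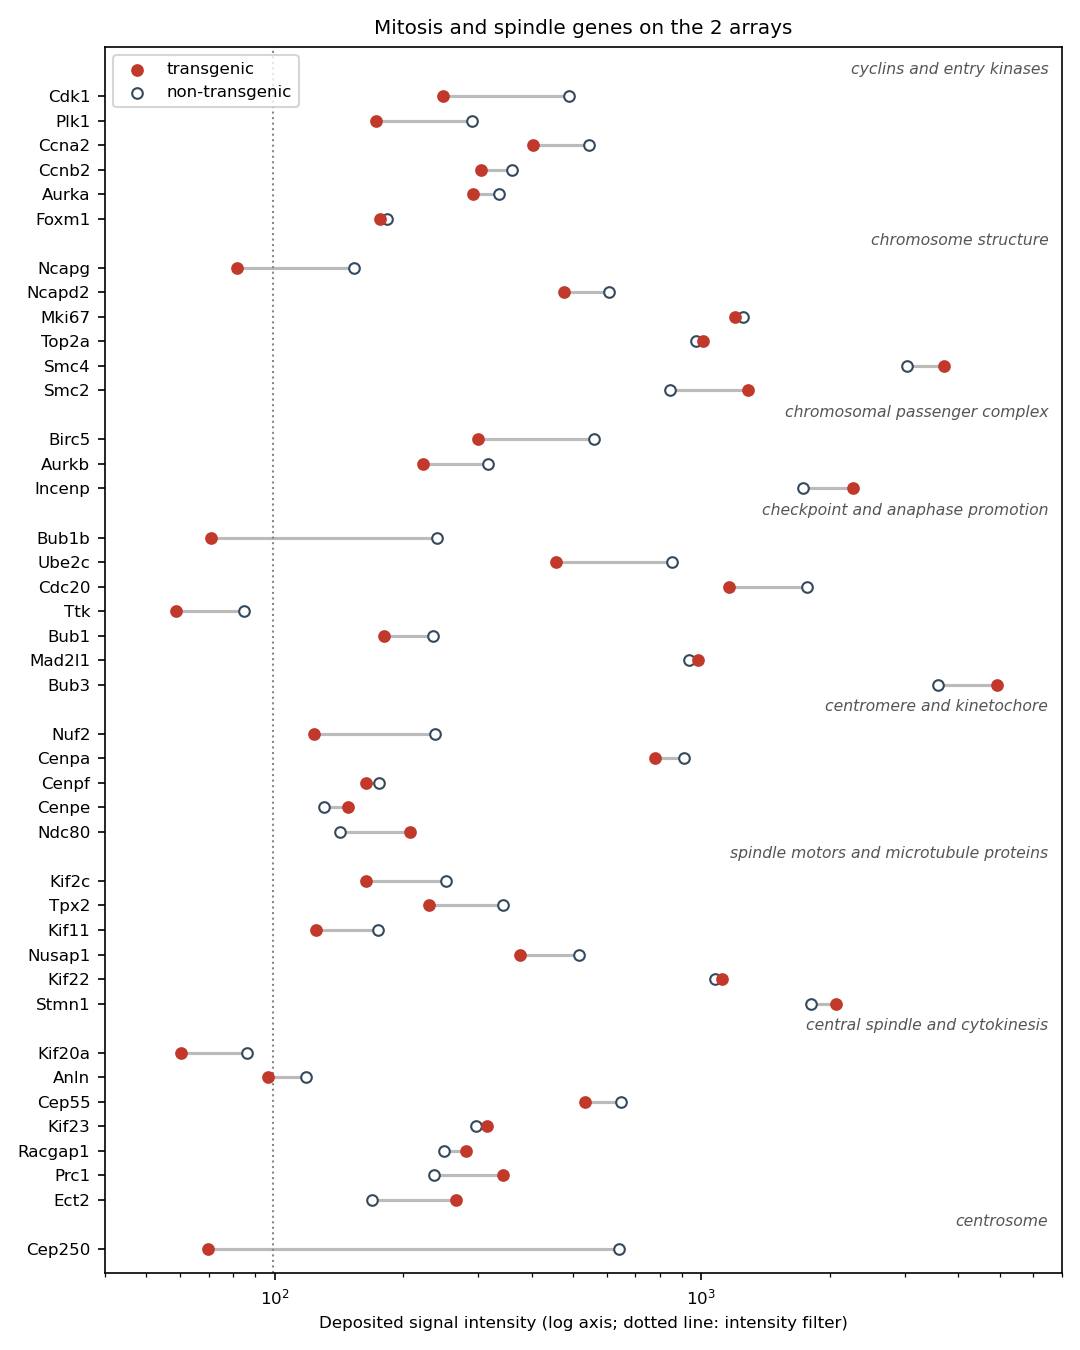
Deposited signal intensity (log axis) of the representing probe set of each of 41 genes, on the transgenic array (filled points) and the non-transgenic array (open points), grouped by role. The filled points of the cyclin and entry kinase genes all lie left of the open ones, while those of Smc2, Smc4, Incenp, Bub3, Prc1 and Ect2 lie to the right.

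All 6 measured genes of mitotic entry, which are cyclins, kinases and Foxm1, were lower on the transgenic array as deposited. Ccnb1 was not measured. Cdk1, the kinase that drives mitosis, had an intensity of 248.2 with the transgene and 489.7 without it, 1.97-fold lower (log2 ratio -0.98) and just short of 2-fold. Plk1, a kinase that acts on centrosomes and kinetochores, had 172.5 with the transgene and 290.6 without it (-0.75). These were the only genes of the 6 measured here past 1.5-fold.

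Their partners differed less. Ccna2, the cyclin A2 gene, had 403.9 with the transgene and 544.0 without it (-0.43), and its other probe set had 286.3 with the transgene and 539.7 without it (-0.91). Ccnb2, cyclin B2, had 305.0 with the transgene and 360.1 without it (-0.24). Aurka, the centrosomal Aurora kinase, had 291.1 with the transgene and 334.7 without it (-0.20). Foxm1, the transcription factor that activates many of these genes, was nearly level at 176.1 with the transgene and 183.3 without it (-0.06). Its sign turned under every other scaling tried, and its other probe set above the filter was at 0.60.

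The chromosomal passenger complex, which corrects faulty attachments and later guides cytokinesis, was split. Birc5, or survivin, had 299.7 with the transgene and 558.6 without it, 1.86-fold lower (-0.90). Its kinase Aurkb had 222.4 with the transgene and 316.6 without it (-0.51), with its other probe set at -0.08. The scaffold Incenp was higher, with a representing probe set at 2263.1 with the transgene and 1732.9 without it (0.39). Of its 3 other probe sets above the filter, 1 was higher (0.18) and 2 were lower (-0.45 and -2.21), so the direction of Incenp depended on the probe set.

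In the spindle checkpoint, Bub1b was one of the pair of genes past 2-fold. It encodes BubR1, a part of the complex that inhibits the anaphase promoting complex, and had 70.8 with the transgene and 239.5 without it, 3.38-fold lower (-1.76). Its probe sets disagreed in size: a second had 83.3 with the transgene and 108.4 without it (-0.38), and another, under the filter, had 97.2 with the transgene and 68.9 without it (0.50). The transgenic value of the representing probe set lay under the filter, and with the mean of all 3 probe sets the log2 ratio was -0.55.

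The activators of anaphase were lower too. Ube2c, the ubiquitin-conjugating enzyme of the anaphase promoting complex, had 455.1 with the transgene and 853.3 without it, 1.88-fold lower (-0.91). Cdc20, which activates that complex, had 1157.5 with the transgene and 1764.5 without it (-0.61), and its other probe set above the filter had 533.2 with the transgene and 757.2 without it (-0.51). Both Cdc20 probe sets were thus lower by about the same ratio. The checkpoint kinase Bub1 had 180.0 with the transgene and 234.3 without it (-0.38).

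The remaining checkpoint genes differed in direction. Mad2l1, the Mad2 inhibitor of Cdc20, was level at 981.9 with the transgene and 935.9 without it (0.07). Bub3, which carries Bub1 and BubR1 to kinetochores, had 4933.3 with the transgene and 3594.2 without it (0.46), and of its 4 other probe sets above the filter 2 were higher and 2 lower (0.21, 0.12, -0.26 and -0.89). Ttk, the Mps1 kinase that starts checkpoint signalling, lay under the filter at 58.6 with the transgene and 84.5 without it.

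Genes of the centromere and kinetochore showed no common direction, with 3 of 5 lower. Nuf2 and Ndc80 encode partners in the complex that binds microtubules, yet Nuf2 had 123.6 with the transgene and 238.0 without it (-0.95) while Ndc80 had 207.9 with the transgene and 142.5 without it (0.54). Each has 1 probe set, so neither could be checked by another. Chosen after their values were seen, the other subunits Spc24 and Spc25 were lower, at 98.9 with the transgene and 173.8 without it for Spc24 (-0.81) and at 141.3 with the transgene and 247.2 without it for Spc25 (-0.81). Cenpa, the centromeric histone, had 778.4 with the transgene and 909.1 without it (-0.22), with its other probe set above the filter at -0.54. Cenpf, a kinetochore protein of late interphase and mitosis, was at -0.11, a sign that turned under every other scaling tried, with its other probe set above the filter at -0.87. Cenpe, a kinetochore motor, was at 0.19.

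Among genes of chromosome structure, 3 were lower and 3 higher. The condensin I subunits Ncapg and Ncapd2 were lower. Ncapg had 81.5 with the transgene, which lay under the filter, and 153.2 without it (-0.91). Its other probe set, under the filter, was at -0.22. Ncapd2 had 477.1 with the transgene and 608.9 without it (-0.35), with its other probe set at -0.78. The core ATPases shared by both condensins were higher: Smc2 had 1287.2 with the transgene and 841.9 without it, 1.53-fold higher (0.61), and Smc4 had 3706.0 with the transgene and 3032.2 without it (0.29). Smc2 and Ect2 were the only genes at least 1.5-fold higher. The 4 other probe sets of Smc2 all lay under the filter, and 3 of them were lower (-0.71, -0.40 and -0.83). The direction of Smc2 turned with the probe set rule, to -0.27 with the mean of probe sets and to -0.40 with the probe set of median ratio. The other probe sets of Smc4 were at 0.01 and -0.44.

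Mki67 and Top2a, both common markers of dividing cells, were near level by the probe sets that stood for them. This did not hold for the whole list, where Cdk1, Birc5 and Ube2c were lower. Of the 39 genes above the filter, 25 were lower and 14 higher. Mki67, which coats mitotic chromosomes and is used as a proliferation marker, had 1198.8 with the transgene and 1252.9 without it (-0.06), and its sign turned to 0.10 after aligning the medians of the arrays. Top2a, which untangles sister chromosomes, had 1007.9 with the transgene and 968.9 without it (0.06). Its other probe set above the filter had 309.7 with the transgene and 244.0 without it (0.34).

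Genes of spindle motors and microtubule proteins were mostly lower. Kif2c, a kinesin that takes microtubules apart, had 163.4 with the transgene and 252.1 without it (-0.63). Its other probe sets were at -0.45 above the filter and at -0.04 and -0.20 under it. Tpx2, which activates Aurora A on the spindle, had 229.5 with the transgene and 342.5 without it (-0.58), and its 2 other probe sets above the filter were lower too (-0.57 and -0.21). Kif11, the motor that separates spindle poles, had 124.8 with the transgene and 174.7 without it (-0.49), and its 2 other probe sets were closer to level (-0.17 and -0.00). Nusap1, a microtubule-bundling protein, was at -0.46 by the probe set above the filter. The chromosome-binding kinesin Kif22 was at 0.06, but at 1.497 by a probe set under the filter with 74.5 with the transgene and 26.4 without it. Stmn1, the microtubule-destabilising stathmin, was at 0.20, with the other Stmn1 probe set at -0.43.

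Of the 6 central spindle and cytokinesis genes above the filter, 4 were higher, where 51.2% of all genes were. With the probe set of median ratio Prc1 was at -0.38 and Racgap1 at 0.00, while Ect2 and Kif23 stayed above 0. For a gene with 2 probe sets, such as Prc1, that rule always takes the lower one, so it could not check the direction of Prc1. With the mean of probe sets all 4 were above 0, Prc1 at 0.08 and Racgap1 at 0.003. Ect2, the exchange factor that activates RhoA for the cleavage furrow, had 265.4 with the transgene and 168.8 without it, 1.57-fold higher (0.65) by its only probe set. Prc1, which bundles antiparallel microtubules, had 342.2 with the transgene and 235.6 without it (0.54), but its other probe set, of similar mean intensity, had 240.8 with the transgene and 312.9 without it (-0.38). The centralspindlin genes Racgap1 and Kif23 were near level at 0.17 and 0.09, and the other probe set above the filter of each was lower (-0.16 and -0.34). Cep55, which recruits the machinery of abscission, was at -0.28, and Anln, the anillin that scaffolds the contractile ring, at -0.30. Kif20a, a kinesin that brings the passenger complex to the central spindle, lay under the filter at 60.4 with the transgene and 86.3 without it.

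The largest difference belonged to Cep250. It encodes a protein that links the centrioles of a centrosome in interphase. It had 69.6 with the transgene and 640.6 without it, 9.20-fold lower (-3.20). It has 1 probe set and the transgenic value lay under the filter, so the size rests on a dim value. Of 23 other centrosome genes above the filter none was 2-fold apart, and their median was 0.17.

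**Figure D2:**
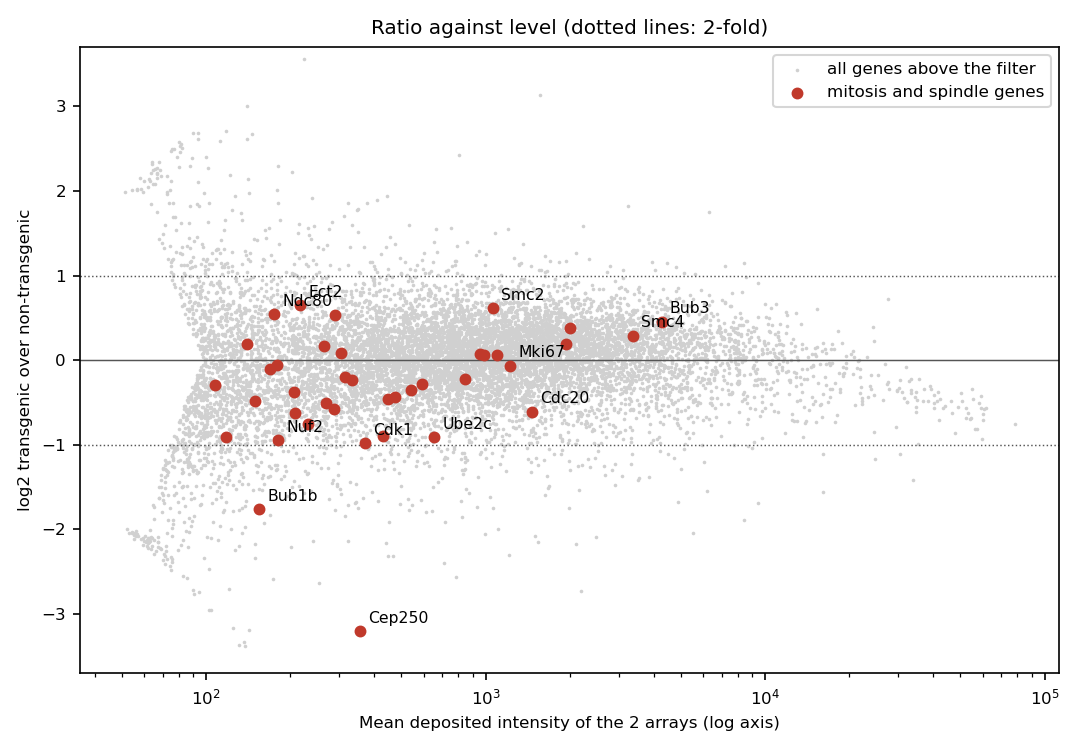
log2 transgenic over non-transgenic against the mean intensity of both arrays (log axis) for 10810 genes above the filter (grey) and the 39 mitosis and spindle genes (red). Only Cep250 and Bub1b lie past the lower 2-fold line, and the 4 red points at the highest intensities lie above 0.

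The ratios differed with the intensity of the probe set, in the mitotic genes and in all genes. Among genes of mean intensity under 200, the 9 mitotic genes had a median log2 ratio of -0.30 and all 1999 genes one of -0.24. Of these 1999 genes, 16.4% were at least 2-fold lower and 8.40% at least 2-fold higher. Between 200 and 500, the 16 mitotic genes had a median of -0.45, against -0.03 for all 2109 genes, and 12 of the 16 were lower (52.7% of all genes). Between 500 and 1500 the 10 mitotic genes had a median of -0.14, against 0.03 for all 3513. Above 1500 the 4 mitotic genes, Bub3, Incenp, Smc4 and Stmn1, were all higher, with a median of 0.34 against 0.09 for all 3189 genes. The dimmest genes of the group thus differed little from other dim genes, and the distance from the background was widest between 200 and 500. With the filter raised to the 75th percentile of intensities, 16 members were left and their median was -0.00, only 0.07 below that of all genes so filtered.

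Other probe sets gave a check on direction within the same RNA. Above the filter lay 28 other probe sets of 20 of these genes, of which 18 were on the same side of 0 as the representing one (64.3%, against 58.5% for all genes). For the genes that were lower, 12 of 13 other probe sets were lower too, where the share over all lower genes was 68.2%. For the genes that were higher, 6 of 15 were higher and 9 lower, where 52.1% of those of all higher genes were higher. The difference between the lower and the higher genes in this respect was not tested. Over all 67 member probe sets above the filter the median log2 ratio was -0.28 and 46 were lower, against a median of -0.03 and 52.1% lower for all 19976 named probe sets.

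**Figure D3:**
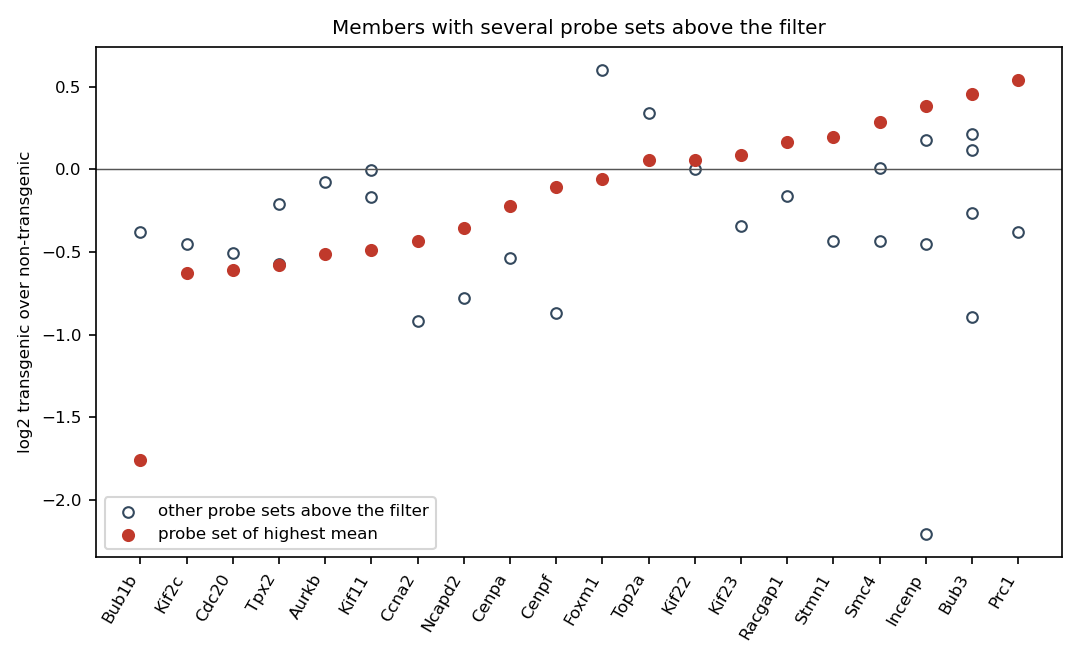
log2 transgenic over non-transgenic of the representing probe set (filled) and the other probe sets above the filter (open) for the 20 genes that have both, ordered by the representing value. Open points lie below 0 for nearly all genes on the left, and 9 of the 15 open points of genes on the right, from Top2a to Prc1, lie below 0 as well.

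Directions depended little on scaling. Taken as deposited, aligned on the median, after quantile normalization and after loess, 22 of the 39 genes were lower and 14 higher each time, and Mki67, Cenpf and Foxm1 changed sign. Aligning the medians moved the median of all genes to 0.19, against 0.01 as deposited, so values are best read against it: the mitotic genes lay 0.25 below the median of all genes as deposited, 0.26 below when aligned, and 0.20 below after quantile normalization and after loess. Of the 39 genes, 32 had a promoter to search. The 27 with CHR letters had a median of -0.22, and the 5 without, Cep250, Nuf2, Nusap1, Bub1 and Mad2l1, had -0.46. The latter is the single value of Nusap1, and the difference between genes with and without the letters was not tested.

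Lists of related genes outside the 42 differed in direction. Among 34 other mitotic genes above the filter, 20 were lower and 14 higher, with a median of -0.10. Past 2-fold were Hmmr, a spindle assembly protein, at 112.9 with the transgene and 335.8 without it (-1.57, other probe sets -0.77 and -0.94), and Gtse1, a microtubule-binding protein, at 42.9 with the transgene and 121.0 without it (-1.50). In the other direction Melk, a kinase of dividing cells, had 164.1 with the transgene and 73.9 without it (1.15). The transgenic value of Gtse1 and the non-transgenic value of Melk lay under the filter. The gene of highest intensity in the list, the spindle pole organiser Numa1, was at 0.35, while its 2 other probe sets above the filter were lower (-0.04 and -0.55).

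Among 32 other kinetochore genes, 3 were at least 2-fold lower and 1 higher, with a median of 0.01. Of all genes above the filter, 4.95% were at least 2-fold lower and 2.74% at least 2-fold higher. Nsl1, of the Mis12 complex, had 52.4 with the transgene and 216.0 without it (-2.04, other probe set -0.69), and Ska1, which holds kinetochores on microtubules, had 68.7 with the transgene and 171.6 without it (-1.32). The transgenic values of Nsl1 and Ska1 lay under the filter, so these sizes rest on dim values. The inner kinetochore gene Cenpc1 was higher, at 1297.6 with the transgene and 548.9 without it (1.24). Zw10, the gene of highest intensity there, was at 0.13.

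The anaphase promoting complex, cohesin and centrosome lists were level or slightly higher. None of 16 anaphase promoting complex genes was 2-fold apart (median 0.10), and Anapc5, of highest intensity, was at -0.07. Of 16 cohesin and other condensin genes, 13 were higher (median 0.17), and Rad21, a cohesin subunit, was at -0.07. The exception past 2-fold was Espl1, the separase that cuts cohesin at anaphase, at 90.0 with the transgene and 212.2 without it (-1.24). The transgenic value of Espl1 lay under the filter. In the centrosome list 17 of 23 genes were higher. Odf2, of highest intensity there, was at 0.56, but its 4 other probe sets above the filter were all lower (-0.83, -1.93, -0.55 and -0.72).

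Regulators were close to level as lists. Of 18 Myb-MuvB, E2F and Rb genes the median was -0.05, and Rbbp4, a histone-binding MuvB subunit, was at 0.28. The only one past 2-fold was E2f4, the E2F protein of the DREAM complex, at 392.6 with the transgene and 1241.3 without it, 3.16-fold lower (-1.66) by its only probe set above the filter. None of 14 G1 cyclin, kinase and inhibitor genes was 2-fold apart (median 0.06), and Ccng2, a cyclin of resting cells, was at 0.62.

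DNA replication genes, which act just before mitosis, had the median nearest to the mitotic one among the related cell cycle lists. Of 34 above the filter, 27 were lower, with a median of -0.17, against 25 of 39 and -0.24 for the mitotic genes. Tk1, thymidine kinase, was the only one past 2-fold, at 334.2 with the transgene and 796.6 without it (-1.25), and the sliding clamp Pcna was level at 8475.6 with the transgene and 8478.2 without it. The difference between the lists was not tested.

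**Figure D4:**
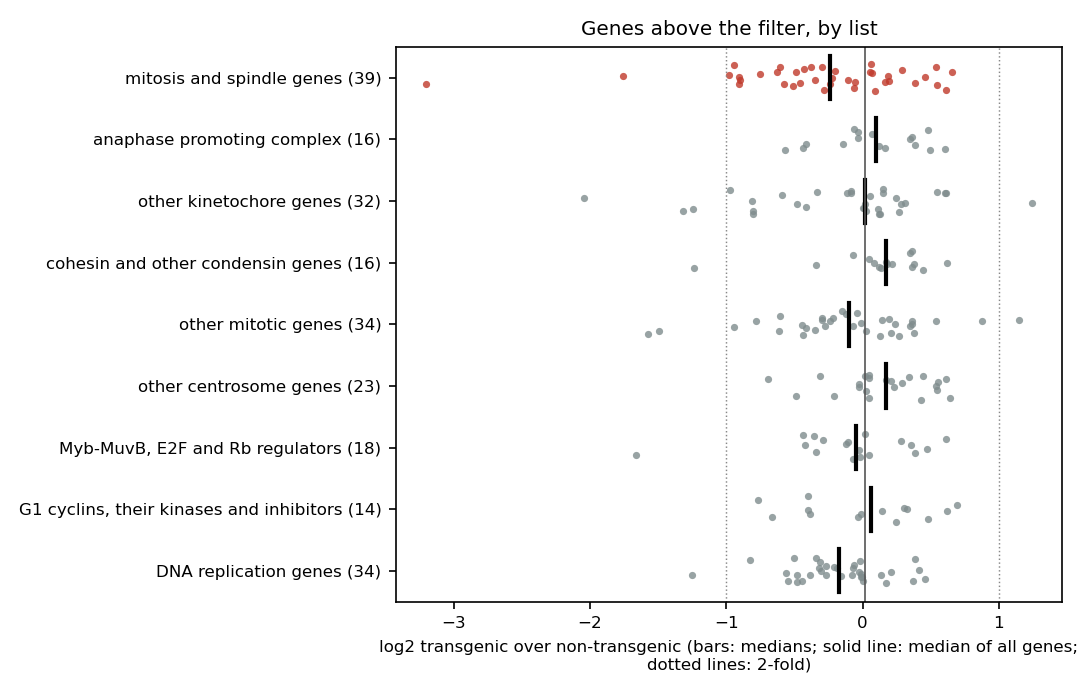
log2 transgenic over non-transgenic (horizontal axis) of genes above the filter in the mitotic list (red) and the related lists (grey), with the number of genes in brackets and a bar at each median. The mitotic and DNA replication lists have the lowest medians, -0.24 and -0.17.

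Markers of cell types differed between the arrays as well. The cells carried B cell markers in both groups, but 10 of 10 measured B cell genes were lower, with a summed intensity of 134630.1 with the transgene and 237490.0 without it. Cd79a, a chain of the antigen receptor, had 18477.6 with the transgene and 49431.5 without it (-1.42), Fcer2a, or CD23, had 4463.0 with the transgene and 14414.2 without it (-1.69), and Ms4a1, or CD20, had 28070.7 with the transgene and 41029.2 without it (-0.55). Germinal centre genes, known from B cells that divide fast, summed to 5413.2 with the transgene and 9650.2 without it, with 7 of 8 above the filter lower. Among them Mef2b was at -2.34, with a transgenic value under the filter, Basp1 at -1.57 and Lmo2 at -0.85. Their part in the lower mitotic values was not tested.

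Other lists differed in other ways. B progenitor genes, whose cells also divide, summed to 7058.4 with the transgene and 4739.7 without it, with 7 of 8 above the filter higher. Vpreb1 was at 2.40, with a non-transgenic value under the filter. Rag1 was at the floor of 25 on the non-transgenic array and at 126.7 on the transgenic one, at least 5.07-fold higher, and Vpreb3 was at 0.27. Natural killer genes summed to 7797.2 with the transgene and 5576.2 without it, with Klre1 at 1.12 and Gzma at 0.85. Of 9 natural killer genes, 6 were higher and 3 lower. Plasma cell genes summed to 46934.7 with the transgene and 53143.4 without it, with Fkbp11 at -1.09 and Jchain at -0.53. Of 8 plasma cell genes, 5 were lower and 3 higher. T cell genes were dim in both groups, summing to 1281.9 with the transgene and 1482.9 without it, with Cd4 at 1.85, Thy1 at -1.20 and Cd3d at -0.02. Of the 6 T cell genes above the filter, 5 were lower and only Cd4 was higher, with a list median of -0.445. The non-transgenic value of Cd4 (40.5) and the transgenic value of Thy1 (95.4) lay under the filter. Neutrophil genes summed to 8680.8 with the transgene and 9372.8 without it (Ngp 1.28, S100a8 -0.33), although 4 of the 6 above the filter were higher, with a list median log2 ratio of 0.71. The lower ones were S100a8 and S100a9 (-0.20, named after its value was seen), which hold most of the neutrophil sum. Macrophage genes summed to 11153.2 with the transgene and 11252.2 without it (Lyz2 -0.22). Of the 7 macrophage genes above the filter, however, 6 were lower and 1 higher, with a list median of -0.22. The higher one was Csf1r (0.50, named after its value was seen). Dendritic cell genes summed to 2027.5 with the transgene and 2194.0 without it (Batf3 -1.52, Siglech -0.25). Even so, 3 of the 5 dendritic cell genes above the filter were higher and 2 lower, with a list median of 0.10. The transgenic value of Batf3 lay under the filter. Erythroid genes summed to 279.9 with the transgene and 276.6 without it (Epor 0.03). The 3′ to 5′ ratio of beta-actin, a sign of RNA integrity, was 1.49 with the transgene and 1.25 without it. The part of these markers and of RNA integrity in the mitotic values was not tested.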

How the data were processed

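The authors deposited a table of linear intensity values with a row for each probe set and a column for each array. Their software, background step and scaling are not given in the sources used here. Both columns had a mean of 500.0 once 2% of values were trimmed from either end, so they were taken as already scaled and used as deposited. The median intensity was 93.1 with the transgene and 104.3 without it, and no detection calls were used.

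Control probe sets (64 of 45101) were set aside, and probe sets with several symbols (932) or none (9160) were not named. Symbols of 41 genes matched RefSeq by Entrez identifier, and none was renamed. Values below 25, the 25th percentile over both arrays, were raised to that floor before taking log2. To pass the filter, the higher of a gene's values had to be at least 98.8, the median over both arrays. With 1 array per group nothing was tested, and calls are folds alone. The calculation was tested on simulated data, in which only genes of mean intensity well above the filter were given known folds. Recovery of folds in dimmer genes was not tested. The genes, lists and rules were chosen with earlier results of these data known. All 42 genes are named. From each other list the text names up to 2 genes past 2-fold in each direction and the one of highest intensity. The alternatives were other scalings, floors, filters, probe set rules and fold thresholds. Aligning the arrays on their medians is one of them and not the main setting, because it left the median of all genes above the filter at 0.19. Tools were Python 3.11.15, numpy 2.4.6, pandas 2.3.3, statsmodels 0.14.6 and matplotlib 3.10.9.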

Additional observations from a re-analysis of the deposited data

How the results depend on the processing

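The median log2 ratio of the mitotic genes was below 0 under all 11 alternatives tried for it, from -0.38 with the probe set of median ratio to -0.003 with the filter at the 75th percentile, and was -0.076 with the arrays aligned on their medians. Its distance below all genes ranged from -0.284 without a filter to -0.066 with the filter at the 75th percentile. Where a gene has an even number of probe sets, the rule of median ratio takes the lower of the middle pair, so it leans low. Under that rule 6.75% of all genes were at least 2-fold lower and 1.62% at least 2-fold higher, and the distance was -0.258. The count at least 2-fold lower was 1 (Cep250) of 31 with the mean of probe sets, against 4.10% of all genes. It was 1 of 35 with the probe set of median ratio (6.75% of all genes) and 1 of 16 with the 75th percentile filter (2.26%). When both values had to reach the filter it was 0 of 35 (2.26%). At 1.5-fold, 10 of 39 were lower (13.4% of all genes) and 2 higher (9.88%). Among all genes above the filter, calls past 2-fold were 35.6% higher as deposited (296 higher, 535 lower), 57.5% when aligned (485 and 358), 47.4% after quantile normalization and 47.0% after loess. Single ratios of the 41 genes moved by under 1.5-fold with other scalings or floors. The mean of probe sets moved 3 further (Bub1b to -0.547, Incenp to -0.420, Smc2 to -0.266) and the probe set of median ratio 4 (Bub1b to -0.380, Prc1 to -0.378, Smc2 to -0.402, Stmn1 to -0.432). Prc1 and Stmn1 have 2 probe sets each, so under the rule of median ratio each was given its lower one. Both the mean and the median rule changed the sign of 6 of the 41. Without probe sets marked as shared, which left 33 genes, 3 moved further: Kif22 to 1.497, Incenp to -0.454 and Stmn1 to -0.432. Replicates are lacking, values near or under the filter are the least certain, and genes with 1 probe set, 12 of the 41, had no check within the array. Cdk1, Plk1, Birc5 and Ube2c were among the genes with 1 probe set.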
